A study of Mus musculus with 4 samples.

Results

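The members of the Ms4a gene family, Ms4a4b, Ms4a4c, Ms4a6b, Ms4a6c, Ms4a6d and Ms4a7, 6 in all, were described across the immune lineages of healthy mouse brain and of brain carrying a glioma. They were taken by symbol from the feature list and are 6 of the 27998 genes in the deposited tables. Each of the 4 libraries was 1 pool of cells from C57BL/6 mice (C57BL/6J in the protocol), so every group has n = 1 library, no difference has a replicate check, and no p-value is given. Of these, 3 libraries came from mice of 8 to 12 weeks of age that had received cells of the glioma-005 line in the hippocampus, each pooling 3 tumors collected on day 35. Antibodies were given into the peritoneum from day 7: the rat isotype control LTF-2 in the IgG library, the Syrian hamster antibody 9H10 against CTLA-4 in the anti-CTLA-4 library, and 9H10 together with the CD4-depleting antibody GK1.5 in the library called depletion here. The healthy library came from normal brain without a tumor, and the labels used here do not give how many brains it pooled or their age. All animals were perfused with cold PBS, and 4 sorted fractions (microglia with intermediate CD45 and CX3CR1, CD45-high CD11b-positive myeloid cells, CD45-high CD3-positive T cells and the remaining CD45-high cells) were mixed in equal parts. The share of cells in a lineage was therefore set by the sort and is not a result.

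Ms4a genes encode membrane-spanning 4-domain proteins, small proteins with 4 membrane passes that associate with immune receptors and tune their signalling. The best known members are Ms4a1, which encodes the B cell antigen CD20, and Ms4a2, the beta chain of the high-affinity IgE receptor. Ms4a4b is known as a T cell member that associates with the receptor GITR (Tnfrsf18), Ms4a6 genes are known from myeloid cells, and Ms4a7 is known as a macrophage gene that is scarce in homeostatic microglia. The human MS4A locus is known for variants tied to Alzheimer's disease risk and to the level of soluble TREM2.

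The members lie close together on chromosome 19. In the GRCm38.p6 annotation they spanned 284 kb, in the order Ms4a7 (chr19:11321039-11336146, minus strand), Ms4a4c (chr19:11404770-11427246, plus), Ms4a4b (chr19:11443553-11467055, plus), Ms4a6c (chr19:11469366-11482192, plus), Ms4a6b (chr19:11516512-11531256, plus) and Ms4a6d (chr19:11586604-11604849, minus). Ms4a4b and Ms4a6c are direct neighbours on the same strand. The start-site regions of 4 successive plus-strand members are shown because they form 2 pairs of alike sequence, while the levels of the members of each pair, given below, differed between lineages. Each run is the plus strand of GRCm38.p6, 5′ to 3′, from 250 bases before to 50 bases after the gene start in RefSeq, at chr19:11443308-11443607 for Ms4a4b, chr19:11407411-11407710 for Ms4a4c, chr19:11518309-11518608 for Ms4a6b and chr19:11469118-11469417 for Ms4a6c. The RefSeq starts of Ms4a4c and Ms4a6b lie inside the longer gene models given above. Capitals mark matches to GGAAGT, or ACTTCC on the other strand, the core bound by Ets family factors.
Ms4a4b: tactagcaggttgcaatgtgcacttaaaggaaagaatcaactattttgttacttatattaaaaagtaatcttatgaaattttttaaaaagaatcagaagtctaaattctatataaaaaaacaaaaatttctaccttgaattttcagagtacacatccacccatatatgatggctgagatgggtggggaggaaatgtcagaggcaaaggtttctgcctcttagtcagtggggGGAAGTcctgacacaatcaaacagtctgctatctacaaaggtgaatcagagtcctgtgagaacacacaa
Ms4a4c: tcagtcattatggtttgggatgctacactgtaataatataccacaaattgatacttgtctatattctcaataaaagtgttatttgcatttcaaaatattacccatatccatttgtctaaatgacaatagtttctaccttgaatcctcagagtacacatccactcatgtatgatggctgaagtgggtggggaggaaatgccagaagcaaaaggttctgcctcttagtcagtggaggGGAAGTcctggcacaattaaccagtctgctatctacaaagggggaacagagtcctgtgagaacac
Ms4a6b: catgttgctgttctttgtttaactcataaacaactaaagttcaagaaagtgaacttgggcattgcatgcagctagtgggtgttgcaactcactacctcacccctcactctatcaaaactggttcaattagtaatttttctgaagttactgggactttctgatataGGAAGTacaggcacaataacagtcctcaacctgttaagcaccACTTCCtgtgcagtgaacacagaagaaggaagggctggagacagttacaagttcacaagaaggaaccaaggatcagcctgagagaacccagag
Ms4a6c: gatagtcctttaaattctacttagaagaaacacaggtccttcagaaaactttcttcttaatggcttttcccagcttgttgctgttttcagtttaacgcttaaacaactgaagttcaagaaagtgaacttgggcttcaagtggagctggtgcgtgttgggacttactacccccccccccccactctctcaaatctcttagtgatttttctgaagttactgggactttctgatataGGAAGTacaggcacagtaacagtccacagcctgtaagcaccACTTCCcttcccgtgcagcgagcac
The Ms4a4b and Ms4a4c windows had 71.4% identical bases and shared a run of 20 bases, and the Ms4a6b and Ms4a6c windows had 51.2% identical bases and shared a run of 48 bases. The other pairs among the 6 windows of the 5 members with an entry (Ms4a7 has 2 windows) had 40.8% to 47.6%. GGAAGT, searched on both strands, was found in 5 of the 6 windows and in 23.8% of 32851 mouse promoters of the same length. It began 19 bases before the start in Ms4a4b, 15 bases in Ms4a4c and, in the first window, 15 bases in Ms4a7. Ms4a6b held it 85 and 43 bases before its start, and Ms4a6c 16 bases before and 25 bases after. TTCNNNGAA, a spacing recognised by STAT factors, matched none of the 6 windows and 8.3% of all promoters, and the core of the interferon-stimulated response element, searched as 2 GAAA words set 2 bases apart, matched none of them and 3.44%. TGTGGT, the RUNX core, matched only the Ms4a4c window and 16.8% of all promoters. These are letter matches and not tested sites.

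The transcripts of some members are also much alike, which bears on how reads are assigned. The coding sequences of Ms4a4b and Ms4a4c had 91.7% identical bases, those of Ms4a6b and Ms4a6d 79.8%, those of Ms4a6b and Ms4a6c 74.0%, those of Ms4a6c and Ms4a6d 66.8%, and the other pairs 44.0% to 50.8%. Ms4a4b and Ms4a4c transcripts shared 102 words of 60 bases, 61 of them within the last 500 bases, where a 3′ assay reads. Ms4a6b shared 63 such words with Ms4a6c, 1 of them in the last 500 bases, and 22 with Ms4a6d, none of them there. Reads that lie wholly within those shared stretches cannot be assigned to 1 member with certainty. How many reads came from them was not tested.

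The libraries held 1420 to 3916 barcodes and 7950206 to 21471565 unique molecular identifiers (UMIs, 1 per captured transcript), with a median of 4359 to 5853 UMIs per kept cell, and any pair of libraries shared at most 6 barcodes. Cells were clustered without the Ms4a and Tmem176 genes, and the 23 clusters were grouped into 9 lineages from marker genes, leaving aside 21 plasma cells and 2 unnamed clusters. A lineage name stands for likeness to those markers and is given without the word "like". Microglia were led by P2ry12, Tmem119 and Sparc in the cluster that held 709 of 796 healthy microglia (cluster 0). The main cluster in the IgG and anti-CTLA-4 tumors (cluster 4; 222 of 298 and 162 of 212 microglia) had 6 microglia markers among its 10 leading genes only when set against cells outside the class. Against all other cells it had none of them, 1 macrophage marker and 1 astrocyte marker, and clusters 13 and 14, which held most of the other microglia of the depletion library, had 4 each against cells outside the class and none against all other cells. The class ratios for microglia are for this reason given with those of cluster 4 alone. Macrophages (Arg1, Tgfbi) numbered 252, 256 and 727 in the tumor libraries but 7 in healthy brain. A further myeloid cluster led by F13a1 and Lyz2 is called F13a1-high myeloid cells, patrolling monocytes were marked by Ace and Treml4, and dendritic cells by Cd209a and Clec10a. Levels below are in CPM, the UMIs of a gene per 1000000 UMIs of a lineage in a library, with exact 95% intervals that cover counting error only. PCR duplicates are collapsed by the UMIs, but cells of a library are not replicates.

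Each member had its own distribution over lineages. Ms4a4b UMIs lay mostly in lymphocytes, with 69.0% of its 22897 UMIs in T cells and 25.1% in NK cells. Ms4a6b was divided, with 41.7% of 16358 UMIs in T cells and 31.8% in macrophages. Macrophages held 60.7% of the 11152 UMIs of Ms4a4c, 61.7% of the 21620 of Ms4a6c, 65.2% of the 11048 of Ms4a6d and 82.1% of the 1053 of Ms4a7. Dendritic cells held a further 17.7% of Ms4a4c and microglia 16.2% of Ms4a6d. These shares depend on how many cells of each class were loaded. The levels per lineage that follow do not, but they do depend on the mix of clusters within a lineage.

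**Figure D1:**
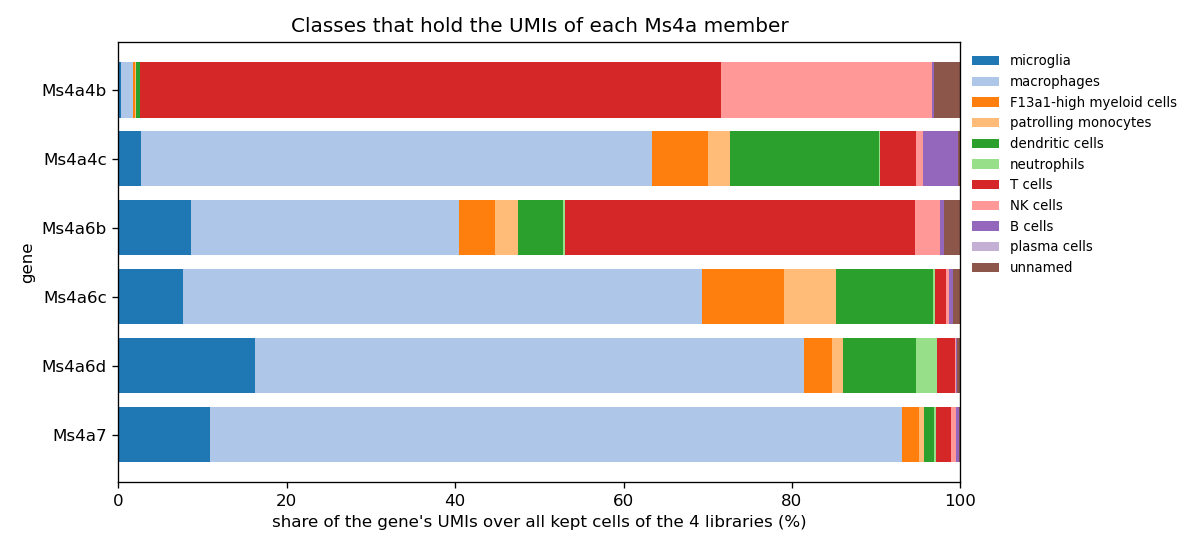
Share of each member's UMIs (x axis, percent of the gene's UMIs over all kept cells of the 4 libraries) found in each class of cells (colors), 1 bar per gene. Ms4a4b sits in T and NK cells, Ms4a7 mostly in macrophages (82.1%), and Ms4a6b in both lymphoid and myeloid classes.

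Ms4a4b, the lymphocyte member, was high in T cells and NK cells of every library in which they were measured. In T cells its level was 1550 CPM (interval 1469 to 1634) in healthy brain, 1014 (975 to 1054) under IgG, 1316 (1277 to 1355) under anti-CTLA-4 and 1420 (1388 to 1452) under depletion. In NK cells it was 1414, 1564 and 1490 CPM in the IgG, anti-CTLA-4 and depletion libraries, and healthy brain had 4 NK cells, too few for a level. NK cells stood above T cells by a ratio of 1.39 (1.3 to 1.49) under IgG and 1.19 (1.13 to 1.25) under anti-CTLA-4, while under depletion the interval of the ratio, 1.05 (0.991 to 1.11), included 1. No other lineage came near these levels. Macrophages had 34.6, 44.0 and 21.2 CPM in the 3 tumor libraries and dendritic cells 42.9, 30.8 and 39.0. F13a1-high cells had 37.3, 30.4, 49.0 and 23.0 CPM over the 4 libraries. Patrolling monocytes had 13.2 to 23.3, B cells 12.1 to 27.8, microglia 2.18 to 11 and neutrophils at most 7.17. The T cell gene Cd3e, which macrophages should lack, was at 8.08, 8.88 and 2.63 CPM in the same macrophages, against 634, 647 and 478 in T cells. A UMI of Ms4a4b was found in 71.7% of IgG T cells (median 5197 UMIs per cell) and 19% of IgG macrophages (median 8848). With every cell thinned to 1000 UMIs these shares were 49.5% and 1.22%.

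Within T cells, Ms4a4b followed the CD8 side of the compartment in tumors. T cells with a Cd8a or Cd8b1 UMI and no Cd4 UMI had 1521, 1416, 1670 and 1590 CPM in the healthy, IgG, anti-CTLA-4 and depletion libraries, and T cells with a Cd4 UMI and no Cd8 UMI had 1439, 809, 1066 and 1235 (the last from 18 cells). The CD8 over CD4 ratio was 1.06 (0.925 to 1.21) in healthy brain, 1.75 (1.59 to 1.93) under IgG, 1.57 (1.45 to 1.69) under anti-CTLA-4 and 1.29 (1.04 to 1.61) under depletion. The gap was thus present in the tumor libraries and not detectable in healthy brain at this depth, and the difference between libraries was not tested. The CD4 group includes Foxp3 T cells, 46 of its 135 cells under IgG and 37 of 176 under anti-CTLA-4, and the CD8 group of the depletion library includes 73. T cells with a UMI of Foxp3, the regulatory T cell factor, had 576 and 598 CPM under IgG and anti-CTLA-4, ratios of 0.406 (0.357 to 0.462) and 0.358 (0.316 to 0.404) to CD8 T cells of the same library. Under depletion the 141 Foxp3 T cells had 1413 CPM, a ratio of 0.889 (0.826 to 0.955). The Foxp3 T cells of the libraries also differed in coreceptor UMIs. A Cd4 UMI without a Cd8 UMI was found in 40% and 37% of them under IgG and anti-CTLA-4 and in 0.709% under depletion. There 51.8% had a Cd8 UMI only. Depletion-library Foxp3 T cells without either coreceptor UMI had 1427 CPM, within the interval of those with a Cd8 UMI (1379 CPM, 1258 to 1508). Foxp3 T cells with a Cd8 UMI only had 1119 CPM (738 to 1629) in 3 cells under IgG. Under anti-CTLA-4 they had 595 CPM (325 to 998) in 5 cells. What part the coreceptor has in these levels was not tested. Cluster 6, the Foxp3 cluster, held 96.5%, 95% and 95.7% of the Foxp3 T cells of the 3 tumor libraries.

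By cluster, Ms4a4b was highest in the CD8 effector cluster with Cd8b1 and Gzmk (cluster 1), with 2095, 2248 and 1796 CPM in the tumor libraries. The naive cluster with Lef1 and Ccr7 (cluster 7) had 1485, 1432, 1564 and 1436 CPM over the 4 libraries, with an IgG over healthy ratio of 0.964 (0.882 to 1.05). The activated cluster with Pdcd1 and Ifng (cluster 10) had 795, 1078 and 1076 CPM, and the Foxp3 cluster 590, 696 and 1360. The lowest T cells were those with Cd163l1 and Blk (cluster 17), at 138, 502 and 151 CPM, whose leading genes also include markers of gamma-delta T cells and type 2 innate lymphoid cells. Against all other cells cluster 17 had no general T cell marker among its 10 leading genes, and 4 against cells outside the T cell class.

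**Figure D2:**
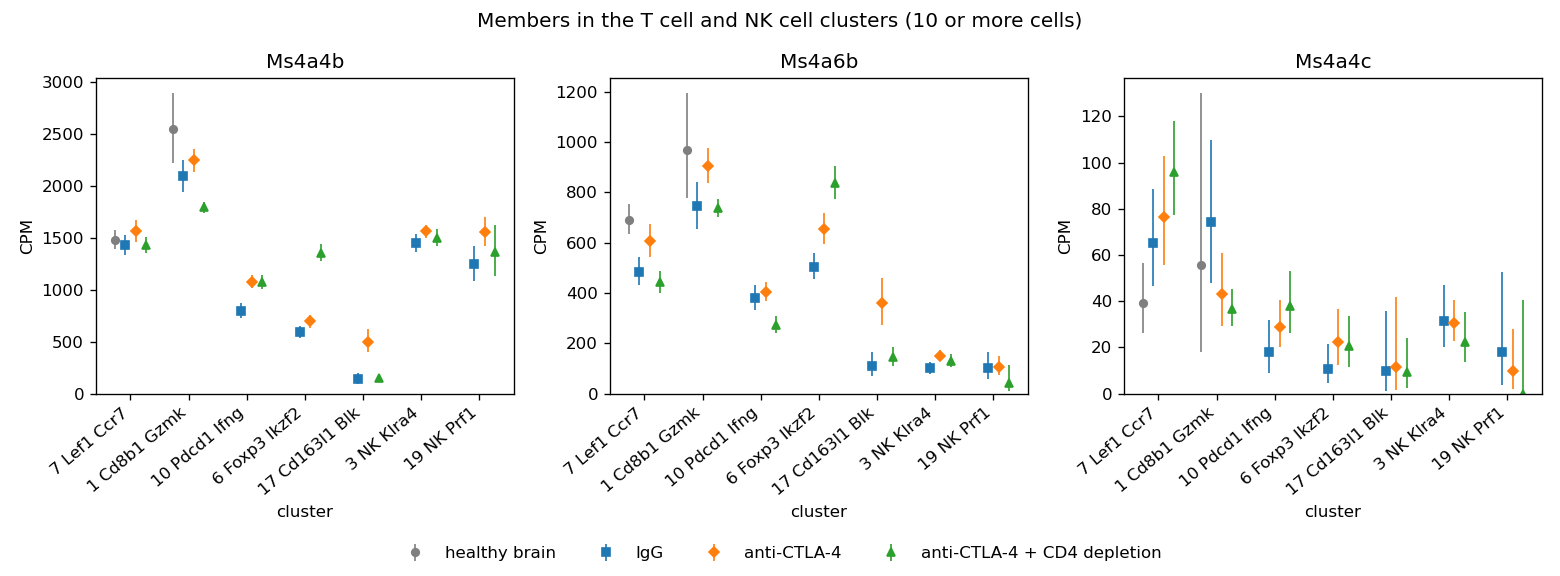
Level in CPM (y axis) of Ms4a4b, Ms4a6b and Ms4a4c in the T cell and NK cell clusters (x axis, cluster number with 2 leading genes) that have 10 or more cells in a library, with exact 95% counting intervals. Ms4a4b is high in cluster 1 and in the NK clusters and low in cluster 17, and in the Foxp3 cluster it lies at 590 and 696 CPM in the IgG and anti-CTLA-4 libraries and at 1360 in the depletion library.

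Ms4a6b was the member shared by T cells and myeloid cells. T cells had 701 CPM (647 to 758) in healthy brain and 468, 598 and 573 in the IgG, anti-CTLA-4 and depletion libraries. Macrophages had 569, 555 and 378 CPM in the tumor libraries, dendritic cells 506, 457 and 241, and F13a1-high cells 361, 544, 610 and 460 over the 4 libraries. Its order over lineages was therefore not fixed: T cells were highest in healthy brain, where the next lineage with 50 or more cells, patrolling monocytes (185 CPM), was 3.78-fold (2.98 to 4.85) lower. Under IgG, macrophages, dendritic cells, T cells and patrolling monocytes (387 CPM) followed each other with ratios of 1.13 (0.987 to 1.29), 1.08 (0.943 to 1.23) and 1.21 (0.999 to 1.47), each with an interval that includes 1. The ends of this order did differ, with a ratio of macrophages over patrolling monocytes of 1.47 (1.21 to 1.79). NK cells, with 101, 144 and 122 CPM, separated from T cells by ratios of 4.63 (3.75 to 5.77), 4.16 (3.67 to 4.74) and 4.69 (3.89 to 5.71) in the 3 tumor libraries. The lymphocytes that shared high Ms4a4b thus differed in Ms4a6b. Microglia had 166, 119, 121 and 99.6 CPM, B cells 19.3 to 34.4 and neutrophils 8.1 to 35.9.

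Foxp3 T cells did not have the low level for Ms4a6b that they had for Ms4a4b. They were at 505, 648 and 873 CPM in the IgG, anti-CTLA-4 and depletion libraries. The ratios to CD8 T cells of the same library were 0.979 (0.833 to 1.15), 1.0 (0.879 to 1.14) and 1.4 (1.27 to 1.53). The first and second include 1, and the depletion value lies above it. The CD8 groups hold 3, 5 and 73 of these Foxp3 T cells. The intervals here and for Ms4a4b do not allow for that overlap. Cluster 1 had 744, 904 and 736 CPM and cluster 17 had 108, 358 and 144.

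Ms4a4c was a gene of dendritic cells, macrophages and F13a1-high cells. Dendritic cells had 1138 CPM (1050 to 1232) under IgG, 1015 (933 to 1103) in the 47 cells of the anti-CTLA-4 library and 542 (505 to 582) under depletion. Macrophages had 732, 851 and 434 CPM, so that dendritic cells stood above them by 1.55 (1.41 to 1.71), 1.19 (1.09 to 1.31) and 1.25 (1.15 to 1.35). F13a1-high cells had 410, 626, 588 and 470 CPM over the 4 libraries. Of the tumor libraries, depletion had the lowest level in all 3 classes. Patrolling monocytes had 106, 212, 200 and 176 CPM, and neutrophils were at or below 6.32 CPM. In the IgG and anti-CTLA-4 libraries 0 of 49 and 0 of 47 neutrophils had a UMI, where 3 counts would be 21.5 and 25.2 CPM.

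Unlike Ms4a4b, its closest relative by sequence, Ms4a4c was low in T cells (38.5, 34.5, 38.0 and 43.1 CPM) and NK cells (29.1, 27.3 and 20.3) and present in B cells (72.3, 164, 270 and 183). In the naive cluster 7 the level was 39.3, 65.2, 76.4 and 96.0 CPM over the 4 libraries.

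Ms4a6c was high in macrophages, dendritic cells, F13a1-high cells and patrolling monocytes. Macrophages had 1276, 1413 and 1042 CPM, dendritic cells 1243, 1175 and 790, F13a1-high cells 1231, 1661, 1831 and 1264, and patrolling monocytes 633, 984, 966 and 641. At least 1 UMI was found in 94.8% to 100% of tumor macrophages. Microglia lay far below, with 68.7 CPM in healthy brain and 176, 134 and 245 in the tumor libraries. The macrophage over microglia ratio was 7.24 (6.48 to 8.11), 10.5 (9.03 to 12.3) and 4.26 (3.96 to 4.58) in the IgG, anti-CTLA-4 and depletion libraries. B cells had 38.2 to 48.2 CPM, T cells 13.6 to 34.9, NK cells 19.3 to 24.8 and neutrophils at most 28.7. Ms4a6c thus reached patrolling monocytes, a class in which Ms4a4c was lower than in macrophages by ratios of 3.45, 4.26 and 2.46, against 1.3, 1.46 and 1.63 for Ms4a6c.

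Ms4a6d was highest in macrophages of the tumor libraries and was also found in other myeloid classes, tumor neutrophils among them. Macrophages had 755, 759 and 543 CPM, dendritic cells 575, 305 and 325, and F13a1-high cells 87.0, 311, 330 and 332. Microglia had 119, 170, 157 and 222 CPM, and in healthy brain this was the highest lineage with 50 or more cells, 2.9-fold (1.79 to 5.02) above patrolling monocytes (40.9 CPM). Lymphocytes were low, with 14.7 to 21.3 CPM in T cells and at most 15.2 in NK and B cells. Neutrophils were at 3.47 CPM (0.716 to 10.1) in healthy brain and at 423 (322 to 546), 386 (283 to 515) and 151 (129 to 175) in the IgG, anti-CTLA-4 and depletion libraries. The healthy value does not overlap any of the others, but the IgG and anti-CTLA-4 libraries had 49 and 47 neutrophils, under the 50 required for a comparison, so none was called. These neutrophils also differed in maturity genes. The healthy ones formed cluster 16, with 18040 CPM of the granule gene Ngp and 779 of the receptor gene Cxcr2, and the tumor ones cluster 15, with 0 CPM of Ngp in all 3 libraries and 1609, 1244 and 964 of Cxcr2. Ms4a6d in cluster 15 was 454, 415 and 356 CPM. The 387 depletion-library neutrophils of cluster 9 had 101 CPM, with 474 of Ngp and 526 of Cxcr2. Maturity and tumor cannot be told apart here, since no cluster held 10 or more neutrophils of both healthy brain and a tumor library.

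Ms4a7 had few UMIs, and most lay in tumor macrophages. Macrophages had 137 CPM (122 to 154) under IgG, 91.2 (80.6 to 103) under anti-CTLA-4 and 44.4 (39.2 to 50) under depletion. Microglia had 4.11, 18.5, 14 and 12.6 CPM over the 4 libraries, and the macrophage over microglia ratio was 7.41 (5.26 to 10.7), 6.52 (4.05 to 11.2) and 3.53 (2.55 to 5.0). Every other lineage was at or below 26.7 CPM, the value of 22 F13a1-high cells of the anti-CTLA-4 library. In patrolling monocytes and NK cells under IgG no UMI was seen in 53 and 165 cells, where 3 counts would be 9.94 and 3.23 CPM. Dendritic cells, which shared high Ms4a4c and Ms4a6c with macrophages, had 16.8, 1.81 and 2.05 CPM of Ms4a7, at 0.122 (0.0554 to 0.235), 0.0199 (0.000502 to 0.112) and 0.0462 (0.00948 to 0.137) of the macrophage level.

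The Ms4a7 signal was concentrated in few cells. Cells with 5 or more Ms4a7 UMIs, a limit chosen after the values were seen, numbered 2, 21, 23 and 14 in the healthy, IgG, anti-CTLA-4 and depletion libraries and held 73.9%, 63.7%, 65.9% and 30.7% of its UMIs. In healthy brain 1 macrophage held 22 UMIs, the whole macrophage signal of that library. In the tumor libraries 15, 21 and 13 of these cells were macrophages. Their Apoe was 34139 against 9089 CPM in the other macrophages under IgG, 14011 against 5646 under anti-CTLA-4 and 31805 against 9776 under depletion. C1qa, a complement gene, was 5852 against 1176, 3167 against 939 and 4569 against 705 CPM. Both genes were thus higher in these cells in all 3 tumor libraries, as was H2-Aa (8588 against 4234, 7210 against 4517 and 7666 against 2648 CPM). Other genes were mixed. Arg1 was higher under IgG and anti-CTLA-4 (2498 against 997 and 1736 against 966 CPM) but lower under depletion (400 against 737). Ly6c2 in these cells was 103 against 1615, 1650 against 1721 and 1191 against 894 CPM. Among markers of border macrophages, Mrc1 was also higher in them, at 217 against 62.4, 52.1 against 16.9 and 59.6 against 24.5 CPM. F13a1, on the same marker list, was lower in them, at 36.1 against 161, 86.0 against 152 and 68.1 against 166 CPM. Pf4 was 10.3 against 7.38, 5.21 against 6.29 and 25.5 against 10.2 CPM, and Cbr2 was at or below 2.61 CPM in both sets of cells. Lyve1, Folr2 and Cd209f were at 0 in both sets, and Cd163 was at 0 in the chosen cells and at most 1.01 CPM in the others. Ms4a4c did not go 1 way: 186 against 784, 534 against 899 and 740 against 428 CPM. The chosen cells were also deeper, with medians of 12106, 15067 and 8556 UMIs against 8672, 9796 and 7587.

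**Figure D3:**
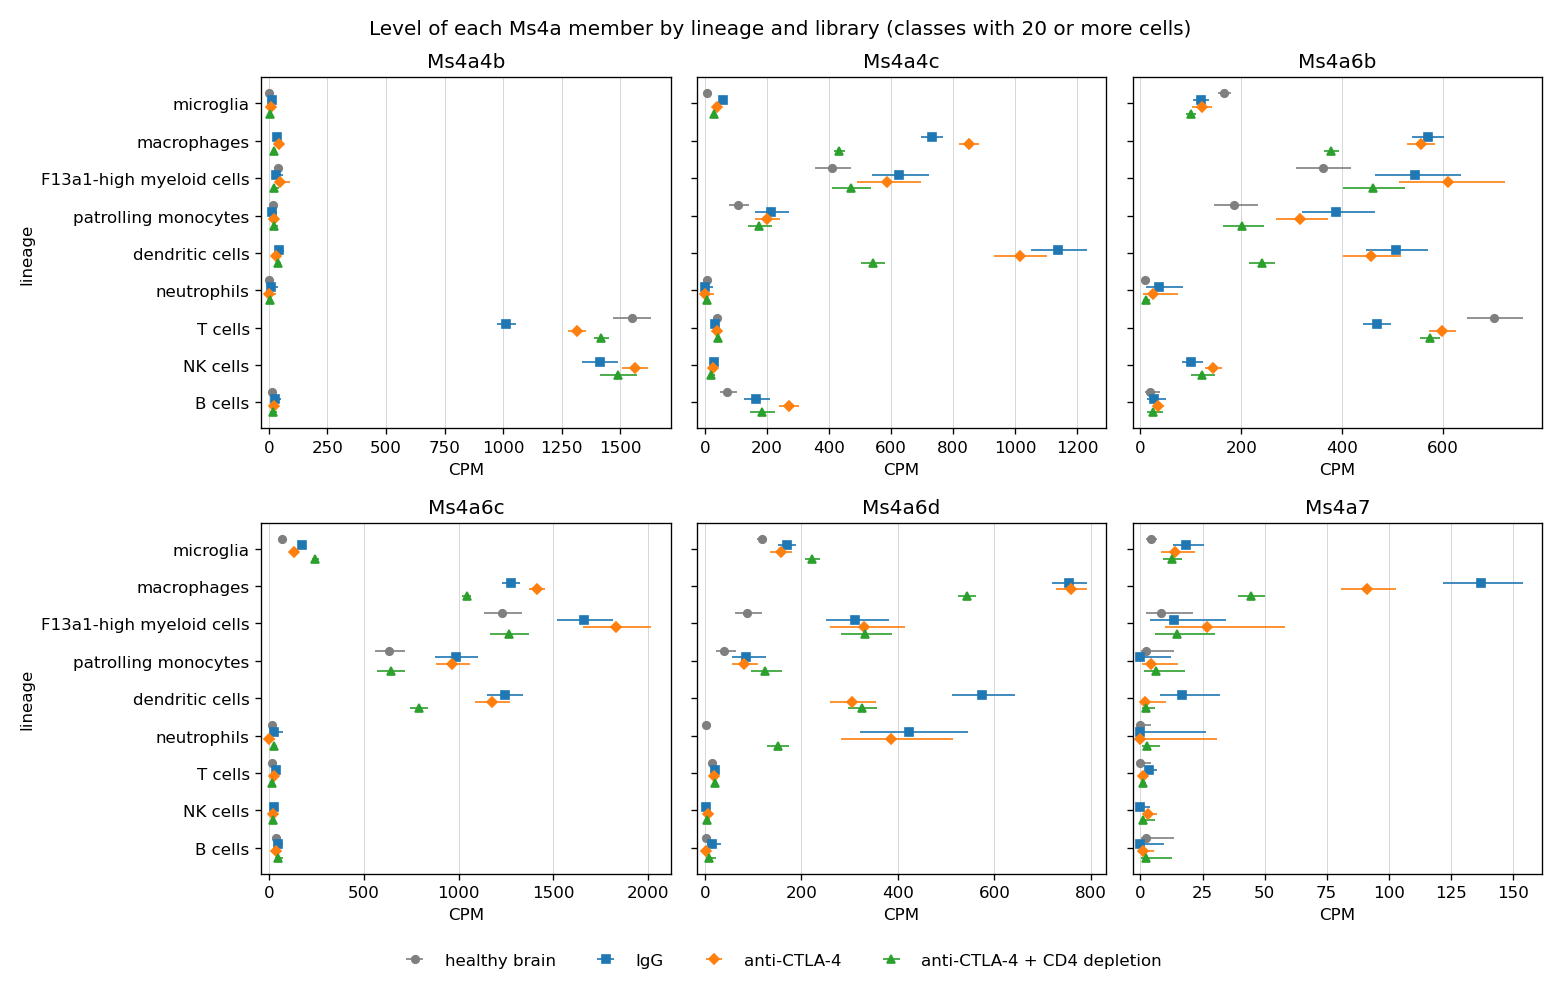
Level of each member in CPM (x axis, a separate scale for each gene) by lineage (y axis) and library (symbols), with exact 95% counting intervals, for classes with 20 or more cells. T and NK cells stand at 1014 to 1564 CPM of Ms4a4b, the myeloid classes hold Ms4a4c, Ms4a6c and Ms4a6d, and Ms4a7 reaches 137 CPM in IgG macrophages.

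To ask how many members a cell carries, every cell was thinned to 1000 UMIs, and a member counted as seen with 1 UMI. Macrophages had a mean of 2.12, 2.28 and 1.62 members in the 3 tumor libraries, and 69.5%, 74.8% and 48.7% of them had 2 or more. Dendritic cells had 2.1, 1.83 and 1.23. T cells had 1.26, 0.962, 1.08 and 1.09 over the 4 libraries, NK cells 0.841, 0.845 and 0.836, and microglia 0.325, 0.393, 0.395 and 0.524. Members were most often seen together in macrophages, dendritic cells and F13a1-high cells, which had 1.37 in healthy brain and 1.74 under depletion. B cells had 0.0917, 0.299, 0.357 and 0.256 and neutrophils 0.0241, 0.25, 0.213 and 0.143 over the 4 libraries. At least 1 member was seen in 9.17% of healthy B cells and 24.0% to 32.4% of those of the tumor libraries, and in 2.41% of healthy neutrophils and 13.3% to 22.9% of those of the tumor libraries.

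Across the 27 lineage and library units with 50 or more cells, members were compared by the Pearson correlation of log2(CPM + 5). These units share libraries and lineages, and the values are a description. Ms4a6c and Ms4a6d were the most alike pair (r = 0.827), followed by Ms4a6d and Ms4a7 (0.782) and Ms4a4c and Ms4a6c (0.78). Ms4a4b and Ms4a4c, the pair with the closest coding sequences, had r = -0.19, and Ms4a4b and its neighbour Ms4a6c had -0.461. The 3 genes most like Ms4a4b were the T and NK cell genes Skap1 (0.968), Sh2d1a (0.966) and Cd96 (0.962). Ms4a4c was closest to Daxx (0.887), the costimulatory receptor gene Cd40 (0.854) and Myof (0.836), and Ms4a6b to Epsti1 (0.763), Pvr (0.762) and Hspa8 (0.76). Ms4a6c was closest to Nupr1 (0.943), the chemokine gene Ccl9 (0.927) and Tmem106a (0.92), and Ms4a6d to Pnp (0.938), Parp12 (0.938) and Csf2rb2 (0.926). The closest to Ms4a7 were complement factor B, Cfb (0.933), Tfec (0.876) and Tpi1 (0.873).

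The first comparison, IgG over healthy brain, asked how the members stand in tumor-bearing against normal brain, in the 4 lineages with 50 or more cells in both libraries. A pair of member and lineage was called when the CPM differed 2-fold or more, the libraries together had 50 or more UMIs of the gene, and 10% or more of the cells had a UMI in the higher library. Of 24 pairs 14 had the UMIs, and 6 were called higher and 0 lower, against a background over all genes and the same lineages of 5.65% called higher and 5.07% lower of 18791 pairs. By lineage the background share of higher calls was 4.07% in microglia, 1.45% in patrolling monocytes, 10.6% in T cells and 2.37% in B cells. Ms4a4c was among the higher calls in 3 lineages. In microglia it was 6.05 CPM (3.91 to 8.93) in healthy brain and 58.1 (48.0 to 69.7) under IgG, a ratio of 9.61 (6.19 to 15.5). In B cells it was 72.3 and 164 CPM, a ratio of 2.27 (1.45 to 3.63), and in patrolling monocytes 106 and 212 CPM, a ratio of 2.0 (1.34 to 3.01). Healthy microglia were near the level of healthy neutrophils (5.78 CPM) for this gene. Ms4a6c was higher in microglia, at 68.7 and 176 CPM with a ratio of 2.57 (2.19 to 3.01). It was also higher in T cells, at 13.6 and 34.9 CPM with a ratio of 2.57 (1.4 to 5.16). Ms4a6b was higher in patrolling monocytes, at 185 and 387 CPM with a ratio of 2.09 (1.55 to 2.82).

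The microglia of the IgG and healthy libraries lay mostly in different clusters. Within cluster 4, present in both libraries with 77 and 222 cells, Ms4a4c was 42.3 CPM in healthy brain and 58.4 under IgG, a ratio of 1.38 (0.645 to 3.52). The healthy value there is 7 UMIs in 3 cells (3.9% of the cells, against 28.4% under IgG), and the interval includes both 1 and 2-fold. Ms4a6c in cluster 4 was 115 and 173, a ratio of 1.51 (0.949 to 2.54). Neither ratio reached 2-fold there, although both intervals include it, while Ms4a6d did, at 78.6 and 167 CPM with 2.12 (1.22 to 4.03), against 1.43 (1.24 to 1.64) over the whole class. The summed level of 12 macrophage markers in microglia was 13086 CPM in healthy brain and 25615 under IgG, that of the classical monocyte markers 32.7 and 232, and that of the microglia markers 39107 and 16255. C1qa is on the macrophage list and was also a leading gene of microglia clusters 4, 13 and 14 against cells outside the class. The macrophage sum therefore cannot measure macrophage RNA in microglia. The T cell call for Ms4a6c rests on 12 and 88 UMIs, at a level near that of NK cells under IgG (24.8 CPM), and the macrophage markers in T cells summed to 415 and 1110 CPM. What part the mix of microglia clusters and RNA of other cells have in these values was not tested. The patrolling monocyte calls were under 2-fold in 5 of 10 alternative settings each, down to 1.18 for Ms4a4c and 1.52 for Ms4a6b, and the B cell call for Ms4a4c in 1 of 10, at 1.79 with cells thinned to 1000 UMIs. With every cell thinned to 1000 UMIs, which leaves fewer UMIs to test, 1 pair was called higher and 1 lower, the latter Ms4a6b in microglia at a ratio of 0.469.

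Other pairs did not pass the rule between IgG and healthy brain, where the median log2 ratio of all genes tested was -0.32 in microglia, 0.19 in T cells and -0.28 in B cells. In T cells Ms4a4b had 0.654 (0.613 to 0.699) and Ms4a6b 0.669 (0.606 to 0.738) of the healthy level. Healthy T cells were mostly naive, with 119 of 141 in cluster 7. Within cluster 7 alone the Ms4a4b ratio was 0.964 (0.882 to 1.05), while the Ms4a6b ratio was 0.7 (0.605 to 0.808), still below 1. In microglia Ms4a6b had a ratio of 0.719 (0.618 to 0.835), and 0.628 (0.431 to 0.943) within cluster 4. Ms4a7 in microglia had 4.51 (2.47 to 8.53) with a UMI in only 2.68% of IgG microglia.

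The second comparison, anti-CTLA-4 over IgG, which shares the IgG library with the first, asked what the antibody changed in tumor-bearing brain, over 6 lineages. Of 36 pairs 26 had the UMIs, and 0 were called in either direction, against a background of 0.642% higher and 0.642% lower of 31909 pairs. The ratios farthest from 1 were 1.64 (1.25 to 2.19) for Ms4a4c in B cells and 0.664 (0.561 to 0.785) for Ms4a7 in macrophages. T cells had ratios of 1.3 (1.24 to 1.36) for Ms4a4b and 1.28 (1.19 to 1.37) for Ms4a6b, and NK cells 1.42 (1.12 to 1.81) for Ms4a6b. In microglia Ms4a4c had 0.708 (0.502 to 0.988) and Ms4a6c 0.762 (0.631 to 0.917). Within cluster 4 these were 0.664 (0.447 to 0.969) and 0.693 (0.557 to 0.858). In macrophages the 3 Ms4a6 genes lay between 0.976 and 1.11. The intervals of these 3 ratios lay within 0.906 to 1.16.

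The third comparison, depletion over anti-CTLA-4, which shares the anti-CTLA-4 library with the second, asked what removing CD4 cells added. Of 26 pairs with the UMIs, 0 were called higher and 2 lower, against a background of 1.59% higher and 3.03% lower of 35012 pairs. Both calls were in macrophages, where the background share of lower calls was 4.86%. Ms4a7 was 91.2 CPM under anti-CTLA-4 and 44.4 under depletion, a ratio of 0.487 (0.41 to 0.579), and Ms4a4b was 44.0 and 21.2, a ratio of 0.481 (0.374 to 0.619). Ms4a4c lay just outside the rule, at 851 and 434 CPM with a ratio of 0.51 (0.483 to 0.539). Ms4a6b, Ms4a6c and Ms4a6d had 0.68 (0.638 to 0.725), 0.738 (0.709 to 0.767) and 0.715 (0.677 to 0.755). All 6 members therefore had a lower level in macrophages of the depletion library, with intervals below 1. Both calls rest on few UMIs, 129 in each library for Ms4a4b and 267 and 270 for Ms4a7.

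The macrophages of the 2 libraries were not the same clusters. Of the anti-CTLA-4 macrophages 255 of 256 lay in cluster 2 (Arg1, Cxcl9), and of the depletion ones 276 lay in cluster 2 and 451 in cluster 8 (Saa3, Fn1). Within cluster 2 the depletion over anti-CTLA-4 ratios were 0.855 for Ms4a4b, 1.03 for Ms4a4c, 1.16 for Ms4a6b, 1.02 for Ms4a6c, 1.08 for Ms4a6d and 0.764 (0.621 to 0.938) for Ms4a7. No member reached 2-fold there, and only the interval of Ms4a7 lay wholly below 1, while those of Ms4a6b (1.08 to 1.25) and Ms4a6d (1.02 to 1.15) lay above it. Cluster 8 of the depletion library had 195 CPM of Ms4a4c against 881 in cluster 2, 832 against 1435 of Ms4a6c, 392 against 824 of Ms4a6d, 234 against 646 of Ms4a6b, 30.8 against 69.8 of Ms4a7 and 12.4 against 37.7 of Ms4a4b. Each member was lower in cluster 8. In the same cells the alarmin gene S100a8 was 3251 against 227 CPM and the chemokine gene Cxcl9 50 against 539. Neutrophil markers summed to 394 CPM in the macrophages of the anti-CTLA-4 library and 4253 in those of the depletion library, and T cell markers to 65.2 and 22.2 CPM. Their part in the result was not tested.

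**Figure D4:**
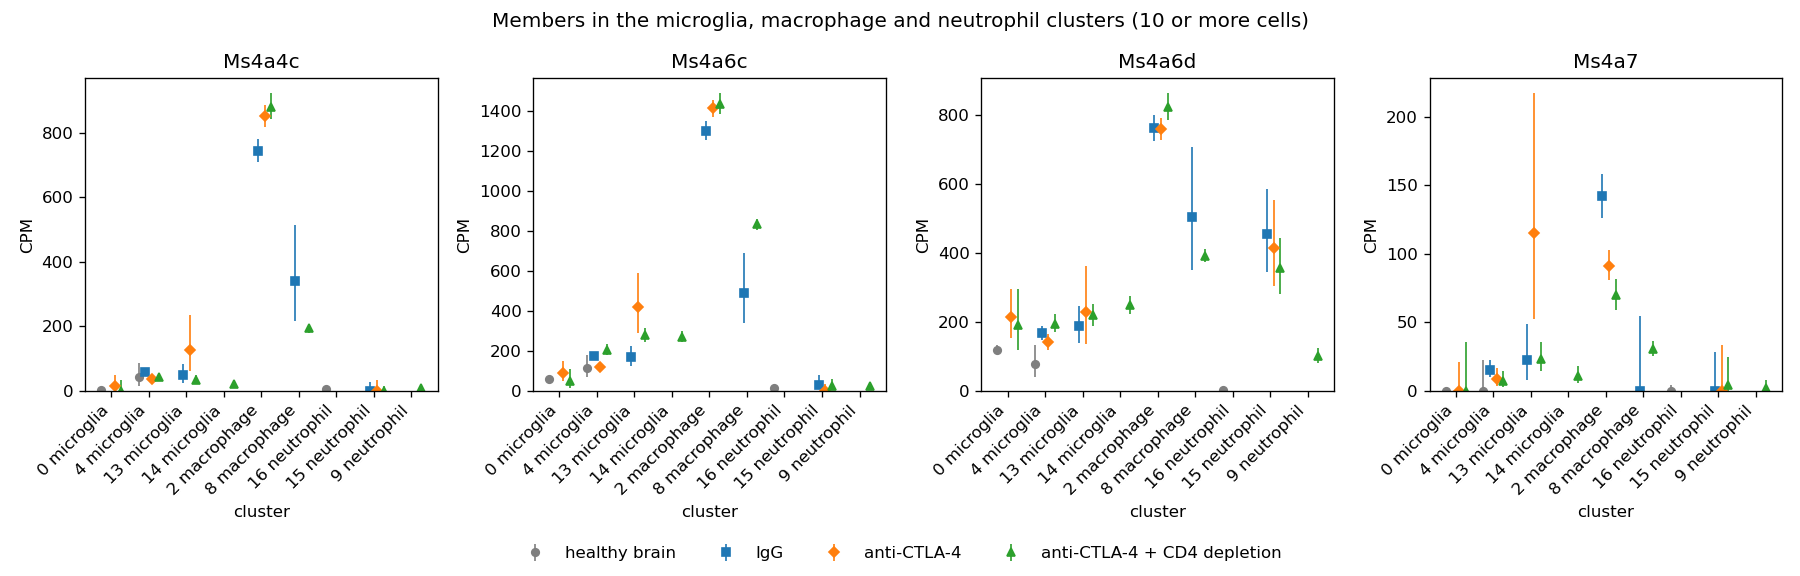
Level in CPM (y axis) of Ms4a4c, Ms4a6c, Ms4a6d and Ms4a7 in the microglia, macrophage and neutrophil clusters (x axis) with 10 or more cells in a library, with exact 95% counting intervals and symbols for the 4 libraries. Macrophage cluster 2 holds similar levels of Ms4a4c in the tumor libraries (744, 851 and 881 CPM), cluster 8 of the depletion library lies at 195, and Ms4a6d separates tumor neutrophils of cluster 15 from healthy ones of cluster 16.

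The other lineages compared had 50 or more cells in both libraries. In these no member with 50 or more UMIs differed by 2-fold or more between the depletion and anti-CTLA-4 libraries. Neutrophils, dendritic cells and F13a1-high cells were under 50 cells in the anti-CTLA-4 library and were not compared. Neutrophil Ms4a6d was 386 CPM (283 to 515) in the 47 anti-CTLA-4 cells and 151 (129 to 175) under depletion. Ms4a6c in microglia was 134 and 245 CPM, a ratio of 1.82 (1.55 to 2.16), and within cluster 4, which held 174 of 535 depletion microglia, it was 1.7 (1.36 to 2.14). This ratio passed 2-fold, at 2.01 to 2.13, in the settings that give 1 higher call. Ms4a6d in microglia had 1.42 (1.21 to 1.66) over the class and 1.38 (1.11 to 1.71) within cluster 4. Patrolling monocytes had 0.635 (0.487 to 0.824) for Ms4a6b, 0.664 (0.573 to 0.768) for Ms4a6c and 1.55 (1.02 to 2.39) for Ms4a6d. Neutrophil markers in patrolling monocytes summed to 1265 and 7089 CPM in the same libraries, and their part was not tested. B cells had 0.679 (0.523 to 0.873) for Ms4a4c. In T cells Ms4a4b had 1.08 (1.04 to 1.12) and Ms4a6b 0.958 (0.905 to 1.01), in a class where 18 T cells had a Cd4 UMI only and 778 a Cd8 UMI only.

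**Figure D5:**
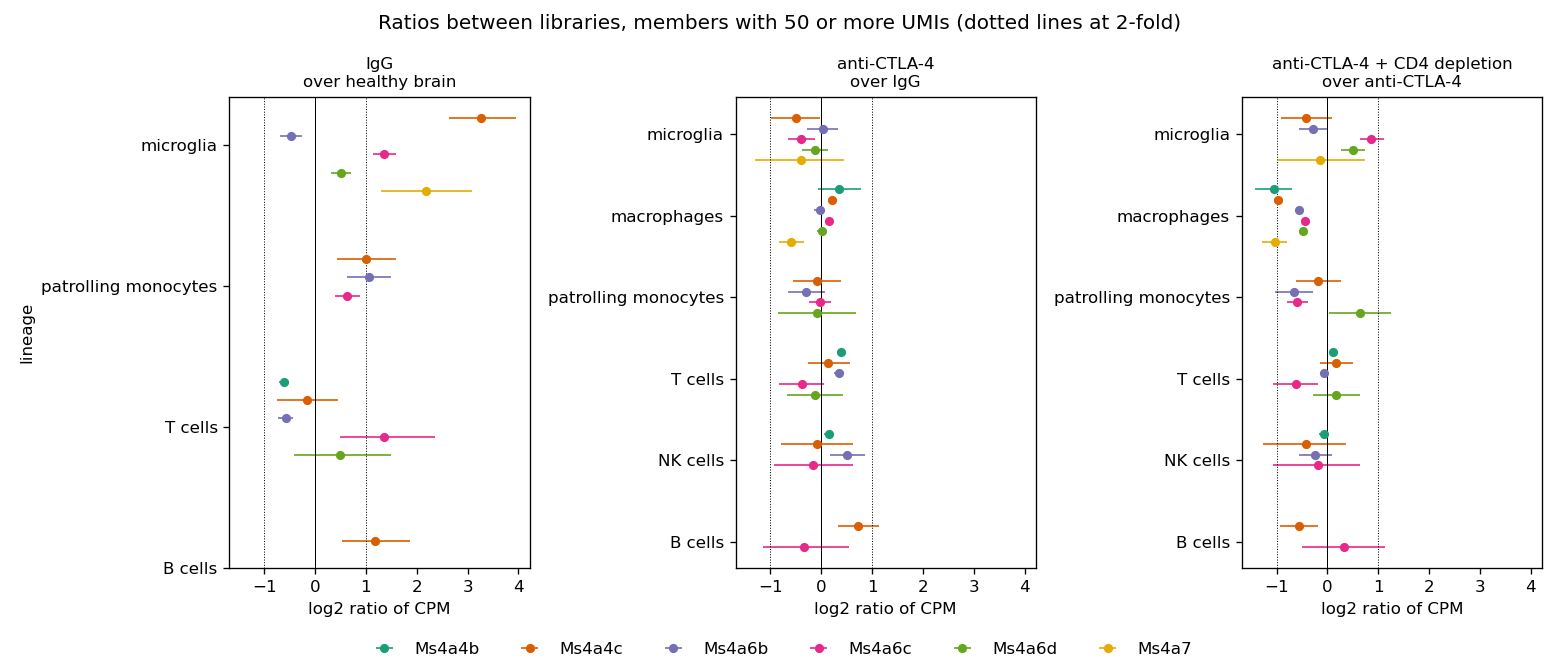
Log2 ratio of CPM (x axis) for each member (colors) with 50 or more UMIs, by lineage (y axis) and comparison (panels), with exact 95% counting intervals and dotted lines at 2-fold. Ms4a4c in microglia lies farthest out, at 3.26 for IgG over healthy brain, no value of the middle panel passes the lines, and the macrophage values of the depletion panel lie below 0.

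Few other genes of the family were seen in these cells. Of 16 further Ms4a and Tmem176 genes on the list 15 were in the table (Ms4a6e was not analysed here), 10 had under 50 UMIs over all kept cells, and 5 had more. Ms4a1, encoding CD20, was in B cells at 2375, 958, 909 and 1257 CPM over the 4 libraries, highest in healthy brain, where Ms4a4c in the same cells was lowest (72.3 CPM). Ms4a4a had 26.0, 16.4 and 26.3 CPM in tumor macrophages and Ms4a8a 41.8, 37.6 and 47.8. F13a1-high cells of the same libraries had 37.2, 71.3 and 20.9 CPM of Ms4a4a and 98.1, 89.1 and 60.6 of Ms4a8a. Tmem176b, a related 4-pass protein, was at 837, 276, 438 and 301 CPM in microglia. In dendritic cells of the tumor libraries it was at 341, 305 and 238 CPM. Among partner genes, Trem2 was 2515, 1745, 1909 and 1677 CPM in microglia and 310, 235 and 263 in tumor macrophages, and Tnfrsf18, which encodes the Ms4a4b partner GITR, was 89.4, 479, 412 and 275 CPM in T cells. Trem2 was thus higher in microglia than in tumor macrophages, the reverse of all 6 members in the tumor libraries.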

How the data were processed

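Single cells were profiled with the 10x Genomics 3′ version 2 chemistry, per the labels' protocols. The authors deposited unnormalized UMI counts for every gene in every cell, made with Cell Ranger 3.1.0, per the file headers, against mm10, per the submitters' processing notes. No sample or column was left out. From these counts, cells with under 200 genes or over 10% mitochondrial UMIs were dropped, and doublets were removed with Scrublet (expected rate 0.05; the top 5% by score was taken in the anti-CTLA-4 and depletion libraries, where under 0.5% were called, removing 90 of 1853 and 169 of 3875 cells; 12 of 1400 and 10 of 1444 were removed in the healthy and IgG libraries). Cells were scaled to 10000 counts and clustered with scanpy 1.11.5 (2000 variable genes, 30 components, 15 neighbours, Leiden resolution 1, no integration; Python 3.11.15, numpy 2.4.6), leaving out all Ms4a and Tmem176 genes. Clusters were named from 26 marker lists after they were seen. The members and lists were chosen with earlier results of these data known. All 6 members are described, with a further Ms4a and Tmem176 list, a partner list and, for each member, the 3 genes with the highest correlation among genes with 200 or more UMIs.

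UMIs were summed per lineage and library and given as CPM with exact Poisson intervals, shares with Clopper-Pearson intervals, and ratios with conditional binomial intervals (95%, scipy 1.17.1), each covering counting error only. With 1 library per group no test was possible. Calls were by size as stated in the text, over lineages with 50 or more cells in both libraries, and the calculation was tested on simulated counts. Of 27998 gene IDs 27645 matched the GRCm38.p6 annotation, and start-site sequences are from RefSeq on that build. Alternative cell filters, doublet handling, scaling, clustering and thresholds were run. A further planned split of the T cells is not reported here.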

Additional observations from a re-analysis of the deposited data

How the results depend on the processing

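No paired analysis was possible because each group is 1 library, and no library could be left out for the same reason. Of 659 single ratios under the alternatives, 581 stayed within the interval of the reported value, 78 left it, and no called ratio changed direction. Ms4a7 in microglia gave no ratio within cluster 4, where healthy brain had 0 UMIs. Of the 8 called ratios, Ms4a6c in T cells (IgG over healthy brain, 2.15 to 3.15) stayed past 2-fold in all 10 settings, and Ms4a4c (1.38 to 11.6) and Ms4a6c (1.51 to 3.08) in microglia in 9 of 10, failing only when cluster 4 stood for microglia, a setting added after the data were seen. Ms4a4c in B cells (1.79 to 2.73) stayed past it in 9 of 10, and Ms4a4c (1.18 to 2.33) and Ms4a6b (1.52 to 2.2) in patrolling monocytes in 5 of 10. For depletion over anti-CTLA-4 in macrophages, Ms4a4b (1.17 to 3.28, as fold lower) stayed past it in 8 of 10 and Ms4a7 (1.31 to 2.11) in 4 of 10. The number of lower calls there, 2, became 1 with at least 500 genes per cell, with median-of-ratios scaling or with the mean of per-cell CPM. It became 0 with ribosomal and mitochondrial genes dropped from library totals, with cells thinned to 1000 UMIs or within cluster 2 alone, and 6 at a ratio of 1.5. The number of higher calls, 0, became 1 with at least 500 genes, without doublet removal, with median-of-ratios scaling, without ribosomal and mitochondrial genes or with the family kept in the clustering, and 2 at a ratio of 1.5. For anti-CTLA-4 over IgG, higher calls became 1 without doublet removal, on thinned cells and at a ratio of 1.5, and lower calls became 1 when per-cell CPM were averaged and at 1.5. For IgG over healthy brain, thinned cells gave 1 higher and 1 lower in place of 6 and 0, and a ratio of 1.5 gave 1 lower. The highest lineage of Ms4a4c became macrophages with at least 500 genes, and that of Ms4a6c became F13a1-high cells without ribosomal and mitochondrial genes or with the family kept in the clustering. The causes were not tested. Depth limits Ms4a7 most, with 1053 UMIs in all.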
